A study of Mus musculus with 16 samples.

Results

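Total RNA was examined isoform by isoform in mouse lung tumour cells in which *Eif4a2* had been targeted by CRISPR. The deposited tables listed 38315 annotated protein-coding isoforms of 20622 genes, and 17725 isoforms of 6229 genes were kept, namely isoforms with at least 10 expected counts summed over the 8 total RNA libraries that lay in genes with 2 or more such isoforms. Of the 6229 genes, 3444 had 2 such isoforms, 1540 had 3 and the highest number was 22. An expected count is the number of reads that the RSEM program assigns to an isoform, and the share of an isoform is its percentage of the counts of all kept isoforms of its gene in the same library.

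The KM line was made from tumours of a single male mouse at clinical endpoint with Rosa26 LSL-MYC/LSL-MYC among its alleles, so both groups carry additional MYC and stem from 1 animal. KM_4A2cr cells had received a lentiviral CRISPR vector whose guide matches coding sequence of *Eif4a2* and were a pool of 4 clones without eIF4A2 protein, and KM_NTC cells had received a non-targeting guide. Each group had 4 libraries of cytoplasmic total RNA from untreated cultures, numbered 1 to 4 in both lines, and libraries of the same number are called a pair here. The study describes its ribosome footprint data, to which these libraries are matched, as coming from separate experiments, and p-values measure the spread between those experiments in 1 pair of lines. Depth ran from 5350919 to 9312622 expected counts per library, of which the kept isoforms held 52.5 to 54.6%.

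A gene can give several mRNA isoforms through alternative promoters, splice sites and polyadenylation sites, and these may differ in the protein they encode or in the untranslated regions that govern translation and decay. A switch from one isoform to another can leave the gene sum as it was. eIF4A2 is a DEAD-box RNA helicase, a paralogue of the eIF4A1 helicase of the cap-binding complex, and is known to bind the CCR4-NOT deadenylase complex. The question addressed here was whether the isoforms of a gene changed together or apart in KM_4A2cr cells.

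The 10 lung epithelial markers summed to between 5075 and 5815 TPM in KM_NTC and between 4843 and 7311 TPM in KM_4A2cr, led by *Epcam*, *Krt18* and *Cdh1*, while *Nkx2-1*, the lung lineage factor, was at or near 0. The alveolar type II list reached 43.7 to 59.3 TPM, with the surfactant genes *Sftpc* and *Sftpb* at 0 throughout. Most of it was *Abca3*, a lipid transporter of lamellar bodies. As a gene sum *Abca3* rose from between 27.6 and 34.6 TPM to between 36.5 and 47.6 TPM (log2 fold change 0.62, adjusted p = 0.0240 by edgeR). *Etv5* of the same list was lower in each pair, with a log2 fold change of -0.33 that did not pass (adjusted p = 0.220 by edgeR). *Lamp3* had a log2 fold change of 0.11 and did not pass either. The 10 fibroblast markers summed to at most 3.14 TPM and the 8 endothelial markers to at most 2.13 TPM in any library. The leukocyte and macrophage list reached 232 TPM in KM_NTC and 160 TPM in KM_4A2cr, both in replicate 4 and both nearly all from *Cd68*, with *Adgre1* and *Lyz2* at 0 in every library, and its part in the results was not tested. Replicate 4 stood apart within both groups in its mean correlation of log2 CPM with the other libraries of its group. In KM_NTC it had 0.928 against 0.947 to 0.960 for the other replicates, and in KM_4A2cr 0.896 against 0.926 to 0.944. Results are therefore given with and without it.

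The values of isoforms have a limit that gene sums do not share. Between 27 and 58 of the 38315 expected counts in each library were not whole numbers, and the alignment settings given in the study's methods include none that reports several positions for a read. A read that lies in sequence common to several isoforms then counts for 1 of them. In the 2872 genes with 2 kept isoforms and at least 200 summed counts, the smaller isoform held a median of 42.5% of the counts, and in 55.9% of these genes it held at least 40%. An even split therefore need not mean that both isoforms were equally abundant, and how far this alters the size of a change in share was not tested.

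**Figure D1:**
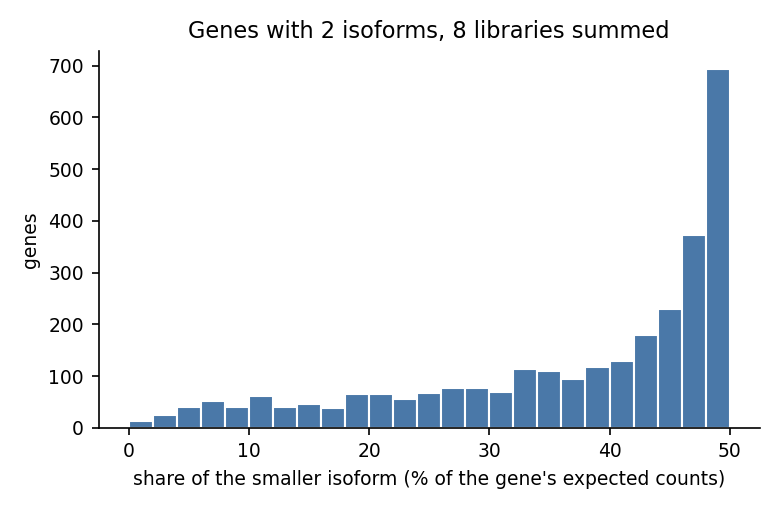
Histogram of the share of the smaller isoform (x axis, % of the expected counts of the gene, 8 libraries summed) over 2872 genes with 2 kept isoforms and at least 200 summed counts (y axis, number of genes per bin of 2 percentage points). The genes pile up towards equal shares, with a median of 42.5%.

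Neither of the 2 isoforms of *Eif4a2* itself passed the test of its level. ENSMUST00000023599.13 (2208 nt) measured 97.0, 113, 119 and 249 CPM (counts per unit of library size, TMM-normalised) in KM_NTC replicates 1 to 4 and 82.9, 96.9, 101 and 215 CPM in KM_4A2cr, while ENSMUST00000077605.12 (2708 nt) measured 127, 131, 133 and 265 CPM against 107, 107, 136 and 215 CPM. Replicate 4 was the highest in each group for both isoforms, and the groups overlapped. The log2 fold changes of KM_4A2cr over KM_NTC were -0.20 ± 0.13 (standard error) for the shorter isoform (adjusted p = 0.480 by edgeR) and -0.18 ± 0.14 for the longer (adjusted p = 0.561 by edgeR). The shorter isoform held 46.4% ± 2.16 (SD, n = 4) of the counts in KM_NTC and 45.9% ± 3.43 in KM_4A2cr. Ribosome-protected fragments (RPFs) of *Eif4a2*, counted in the same lysates on 1 isoform per gene, had a log2 fold change of -0.49 ± 0.15 (adjusted p = 0.0941 by edgeR; 10.3% of the 10291 genes tested passed). The tables hold no read positions, so these values check neither the edit nor the loss of protein.

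Isoform usage, that is whether the isoforms of a gene changed by unequal amounts, gave no called gene in the planned test. With edgeR's diffSpliceDGE, 0 of 6229 genes (0%) had an adjusted p of at most 0.1, and 76 genes (1.22%) had an unadjusted p under 0.05, fewer than the 1 in 20 that uniform p-values would give. limma's diffSplice on voom weights also called 0 genes and had 68 with an unadjusted p under 0.05. Leaving out any replicate still gave 0 called genes.

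That test has a term for replicate, but variation of a single library that all isoforms of a gene share stays in its error. How far this lowered the number of small p-values was not tested. A more direct test was therefore added after these results had been seen, in which edgeR compared each isoform with the rest of its gene within every library (the share test). It called 3 of 6229 genes (0.0482%), *Samhd1*, *Wdr89* and *Chpt1*, and 5 of 17725 isoforms (0.0282%), and 260 genes (4.17%) had an unadjusted p under 0.05. Without replicate 4 it called 9 genes (0.144%), these 3 among them, and 16 isoforms (0.0903%). A limma fit on log2 ratios of the same counts called 0 genes with 353 at an unadjusted p under 0.05, and the share test itself called 0 genes without the replicate block, so the 3 calls were made by the count model with the block alone. All 3 were named after their values had been seen.

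*Samhd1*, which encodes a triphosphohydrolase that lowers the pool of deoxynucleotides, had the smallest p. Its longer isoform ENSMUST00000057725.10 (3926 nt) held 21.6, 21.8, 12.8 and 4.65% of the counts in KM_NTC replicates 1 to 4 and 12.4, 16.1, 8.86 and 3.75% in KM_4A2cr. The share was lower in KM_4A2cr in 4 of 4 pairs, although replicates differed more than cell lines did and the groups overlapped. The mean difference was -4.92 ± 3.46 percentage points (SD, n = 4 pairs), a number at which an exact sign-flip test cannot reach a p of 0.05. In the share test the log2 ratio of the isoform to the rest of the gene changed by -0.64 ± 0.10 (adjusted p = 0.00131 by edgeR). The adjusted p of the gene was 0.000919, 0.121 without replicate 1 and 4.56e-05 without replicate 4.

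In absolute terms the longer *Samhd1* isoform fell, from 29.3, 29.2, 23.9 and 14.3 CPM in KM_NTC to 18.8, 17.8, 14.3 and 11.2 CPM in KM_4A2cr, with a log2 fold change of -0.61 ± 0.14 (adjusted p = 0.0457 by edgeR), a call that was lost without replicate 1, 2 or 3. The shorter isoform ENSMUST00000109549.3 (3245 nt) measured 106, 105, 164 and 293 CPM against 133, 93.0, 148 and 288 CPM, a log2 fold change of 0.01 ± 0.14. The gene sum, made up mostly of the shorter isoform, had a log2 fold change of -0.06 ± 0.13 (adjusted p = 0.849 by edgeR). RPFs of *Samhd1* nevertheless fell, from 45.3, 55.1, 33.4 and 25.8 CPM to 31.6, 27.3, 18.7 and 12.4 CPM, with a log2 fold change of -0.83 ± 0.14 (adjusted p = 0.0182 by edgeR). They had been counted on the shorter isoform.

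The shorter isoform of *Wdr89* (ENSMUST00000187307.2, 2381 nt), a gene for a WD-repeat protein, held 21.2, 28.1, 34.1 and 22.1% in KM_NTC and 23.0, 22.2, 25.0 and 15.2% in KM_4A2cr. It was lower in 3 of 4 pairs and higher in pair 1, with a mean difference of -5.02 ± 4.78 percentage points (SD, n = 4 pairs; exact 2-sided sign-flip test, p = 0.25) and an adjusted p of 0.0289 in the share test by edgeR. The adjusted p of the gene was 0.0218, and it rose to 0.735 without replicate 2 and to 1 without replicate 3; without replicate 1 it was 5.03e-05. Neither isoform passed the test of its level, with log2 fold changes of -0.46 and -0.05.

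*Chpt1*, a choline phosphotransferase of phosphatidylcholine synthesis, had its change in the other direction of length, a lower share of the 852-nt isoform ENSMUST00000073783.6. That share was 85.4, 87.4, 89.2 and 93.8% in KM_NTC and 82.0, 74.5, 80.6 and 93.8% in KM_4A2cr, which is lower in pairs 1 to 3 and 0.0896 points higher in pair 4. The 3898-nt isoform ENSMUST00000020253.15 took 8.56, 8.06, 6.28 and 2.51% in KM_NTC and 10.6, 14.9, 12.5 and 2.46% in KM_4A2cr, and its level rose, with a log2 fold change of 0.67 ± 0.19 (adjusted p = 0.0938 by edgeR). The 4863-nt isoform ENSMUST00000117440.8 had a log2 fold change of 0.57 ± 0.22 (adjusted p = 0.222 by edgeR), and the gene sum had 0.08. The usage call of the gene had an adjusted p of 0.0678 by the share test in edgeR, 0.000172 without replicate 4 and 1 without either replicate 2 or replicate 3.

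**Figure D2:**
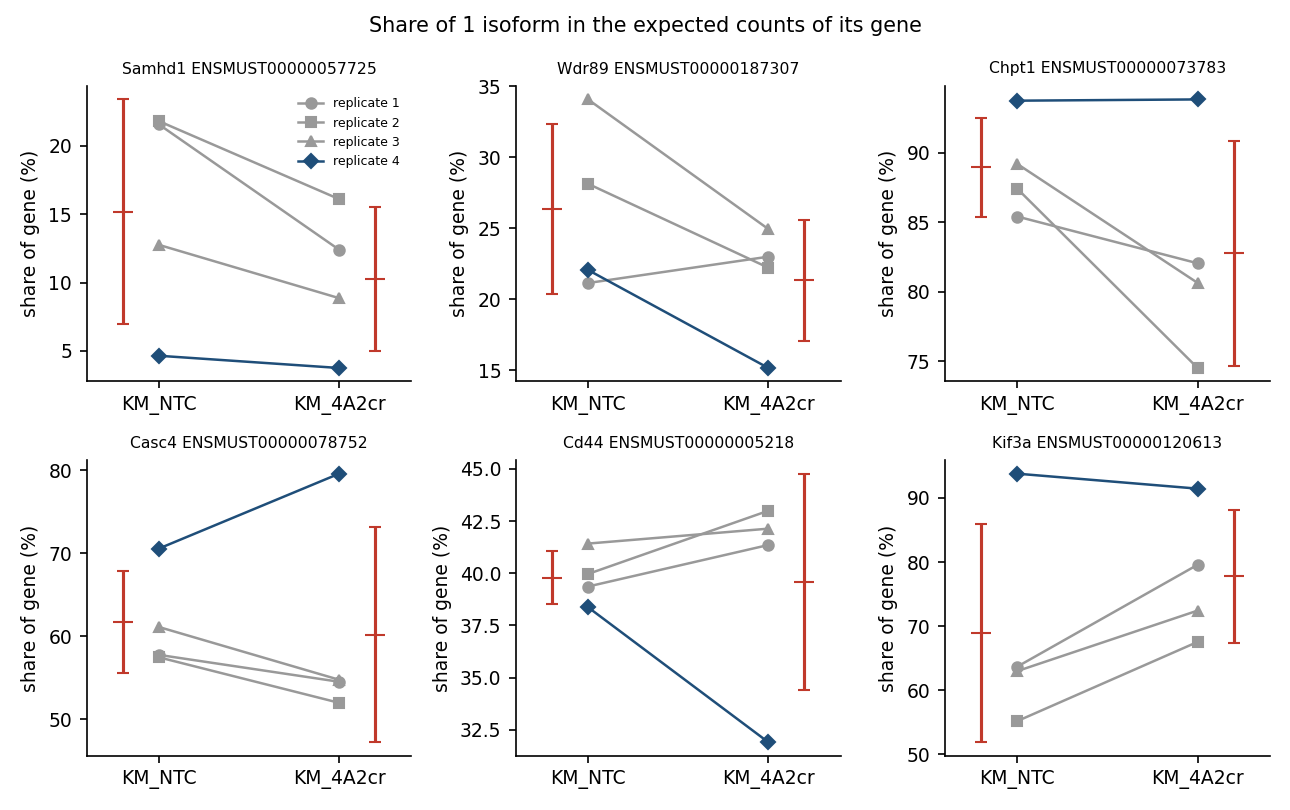
Share of 1 isoform in the expected counts of its gene (y axis, %, scale not starting at 0) in KM_NTC and KM_4A2cr cells for 6 genes, with lines joining libraries of the same replicate number, replicate 4 in blue and red bars giving mean ± SD (n = 4). The longer isoform of Samhd1 was lower in all 4 pairs, while for Casc4, Cd44 and Kif3a pair 4 moved against pairs 1 to 3.

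Another 6 genes passed the share test when replicate 4 was left out, of which *Map3k20* also passed without replicate 1, and 0 of them passed with 4 replicates. In 5 of the 6 the share in pair 4 moved against the mean of pairs 1 to 3, which the choice of these genes favours. *Casc4*, which encodes a Golgi membrane protein, had the smallest p there. Its 4215-nt isoform ENSMUST00000078752.10 fell from 57.7, 57.4 and 61.1% in KM_NTC replicates 1 to 3 to 54.5, 52.0 and 54.7% in KM_4A2cr, while replicate 4 had 70.5 and 79.6%. Over the 3 pairs the log2 ratio to the rest of the gene changed by -0.30 ± 0.04 (adjusted p of the gene = 1.05e-05 by edgeR), and over 4 pairs by -0.11. The 2 shorter isoforms rose in level over the 3 pairs, by 0.47 and 0.48 on the log2 scale, and that of the longest had a log2 fold change of 0.18 that did not pass. RPFs of *Casc4* also rose without replicate 4, by 1.01 on the log2 scale (adjusted p = 8.60e-05 by edgeR; 33.4% of genes tested passed), against a log2 fold change of 0.68 that did not pass over 4 pairs.

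*Cd44*, the receptor for hyaluronan, is a textbook case of alternative splicing through its block of variable exons, and 6 of its isoforms were kept. The longest of them, ENSMUST00000005218.15 (5614 nt), went from 39.4, 40.0 and 41.4% in KM_NTC replicates 1 to 3 to 41.4, 43.0 and 42.1% in KM_4A2cr and from 38.4 to 31.9% in replicate 4. Without replicate 4 its log2 ratio to the rest of the gene changed by 0.11 ± 0.02 (adjusted p of the gene = 0.000696 by edgeR), a small change measured on 51709 counts. With replicate 4 the value was 0.01, and the gene sum had a log2 fold change of -0.02.

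*Kif3a*, a subunit of the kinesin that builds cilia, had the largest change in share of these genes. Its 3161-nt isoform ENSMUST00000120613.9 rose from 63.7, 55.2 and 63.0% in KM_NTC replicates 1 to 3 to 79.6, 67.5 and 72.4% in KM_4A2cr, whereas replicate 4 had 93.8 and 91.5%. In replicate 4 that isoform was also far more abundant, at 139 and 145 CPM against 15.2 to 28.9 CPM in the other libraries. *Map3k20*, a MAP kinase kinase kinase activated by stalled ribosomes, *Gsk3b*, a kinase of glycogen and Wnt signalling, and *BC004004* completed the set, with adjusted p-values of 0.0154, 0.0631 and 0.00603 by edgeR without replicate 4. The 3334-nt isoform of *Map3k20* (ENSMUST00000090824.12) had a log2 ratio of -0.34 ± 0.07 there, and the 1750-nt isoform of *Gsk3b* (ENSMUST00000114750.2) one of -0.41 ± 0.10. For *BC004004* the isoform with most counts (ENSMUST00000234711.2) had -0.48 ± 0.08, while each of its other 10 isoforms had a ratio above 0. In replicate 4 the share of that isoform went from 76.7 to 83.8%.

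Averaged over the 4 pairs, shares moved little in genes with many counts. Pairs that moved in opposite directions cancel in this mean, so it does not measure change within pairs. For the *Cd44* isoform above it was -0.18 points. Over all 6229 kept genes the largest change in mean share of any isoform had a median of 2.26 points. Among 3972 kept genes with at least 800 summed counts, this largest change was under 2 percentage points in 61.4% and under 5 points in 95.0%, with a median of 1.52 points. It reached 10 points in 1 gene, *Sgsh*, which encodes a lysosomal sulfatase of heparan sulphate breakdown and was named after its values had been seen. Its 4357-nt isoform ENSMUST00000005173.11 held 38.6, 50.8, 46.1 and 53.1% in KM_NTC and 56.8, 53.3, 56.6 and 64.7% in KM_4A2cr, higher in 4 of 4 pairs by 10.7 ± 6.41 points, and the share test gave an unadjusted p of 0.00274 that did not pass adjustment (adjusted p = 0.999 by edgeR). Another isoform led in KM_4A2cr than in KM_NTC in 654 of the 3972 genes. In only 13 of them did the leading isoform exceed the isoform that led in the other line by 5 points or more, in both lines. For the isoform of greatest length the pairs went in opposite directions, with a median change in its share over 3961 genes of 0.24, 0.28 and 0.10 points in pairs 1 to 3 and -0.65 points in pair 4. It was higher in 2115, 2193, 2028 and 1693 genes and lower in 1843, 1767, 1931 and 2264.

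At the level of single isoforms, 446 of 14514 kept isoforms that passed the filter on low counts rose in KM_4A2cr (3.07%) and 169 fell (1.16%), at an adjusted p of at most 0.1 by edgeR. These 615 isoforms (4.24%) lay in 366 genes. Among all 19596 isoforms tested, those of genes with a single kept isoform included, 647 rose (3.3%) and 263 fell (1.34%), together 4.64%. Every one of these calls depended on the replicate number being a term of the fit: without that block edgeR called 0 isoforms and 0 gene sums, with 643 isoforms and 362 gene sums at an unadjusted p under 0.05. Without the TMM scaling factors the median log2 fold change of the kept isoforms was -0.14 in place of 0.01 and the calls split into 245 higher and 681 lower, so directions are relative to the bulk of isoforms. Without replicate 4, 2245 of 14702 isoforms rose (15.3%) and 1337 fell (9.09%), together 24.4%, and 610 of the 615 were called there in the same direction.

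As counted, the isoforms of a gene moved together. In 0 genes were isoforms called in opposite directions by edgeR, and the count was also 0 at an unadjusted p under 0.05, with DESeq2 and without any replicate in turn. Of 305 genes with 2 or more tested isoforms whose sum was called (6.13% of all 10880 genes tested as sums were called), 304 had every tested isoform on the side of the sum. The exception was *Timm22*, a subunit of the mitochondrial carrier translocase, named after its values had been seen, whose 2817-nt isoform had a log2 fold change of 0.45 ± 0.14 and whose 746-nt isoform had -0.11 ± 0.24. Neither isoform was called. Without replicate 4, where more sums were called, 1578 of 1611 such genes had every tested isoform on the side of the sum. Across 4171 genes in which the isoform with the second most counts had at least 200, the log2 fold changes of the leading and the second isoform had a Pearson r of 0.858 and a Spearman rho of 0.810 across genes, and 81.3% had the same sign. This is a description, since isoforms of a gene share libraries and make up the sum. Where reads in common sequence were divided between isoforms, their counts move together whatever each isoform did. These values cannot tell that apart from isoforms that truly changed alike, and how much of the agreement it makes up was not tested.

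**Figure D3:**
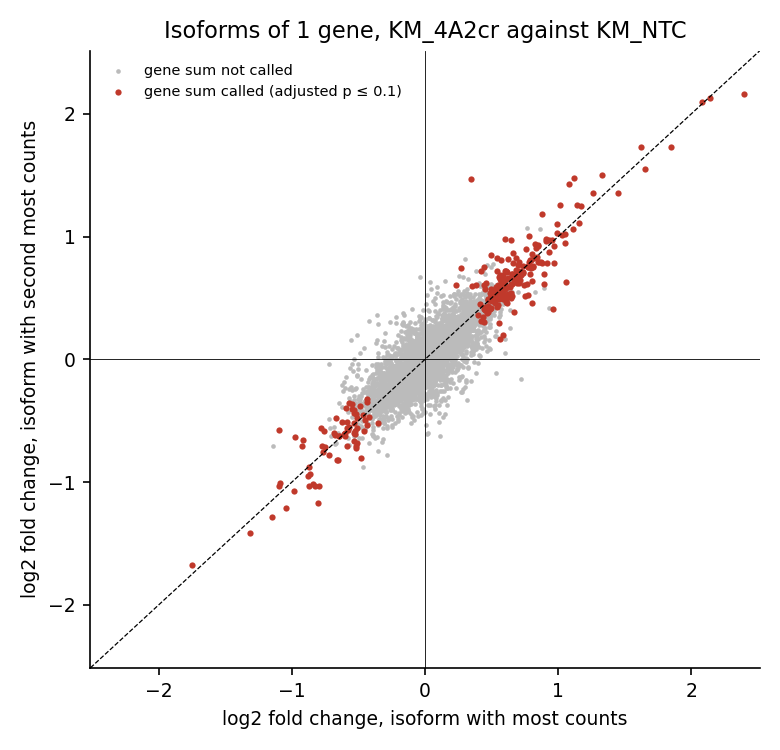
Log2 fold change of KM_4A2cr over KM_NTC of the isoform with most counts (x axis) against that of the isoform with the second most counts (y axis) in 4171 genes, with genes whose sum was called in red and the dashed line marking equal change. Genes whose sum was called lie along the line of equal change, and the Pearson r over all points was 0.858.

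Most called isoforms lay in genes whose sum was called as well. Of the 615 called isoforms, 519 lay in genes whose sum was also called and 96 in 86 genes whose sum was not, 53 higher and 43 lower. All 96 had the sign of their sum, and for 78 of them the sum had an adjusted p under 0.2. In 88 of the 96 the sum was called once replicate 4 was left out, where 29.8% of all gene sums tested were called. The share test had an unadjusted p under 0.05 for 22 of the 96, against 41 of all 615 called isoforms (6.67%), these 22 included. The choice of isoforms whose sum was not called favours this. After adjustment 1 of the 96 passed the share test, that of *Samhd1*. In the other direction, 39 genes were called as sums without any of their isoforms being called.

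Among the 96, the isoforms that rose most with the same sign in 4 of 4 pairs belonged to *Tbc1d24*, *Slc37a1*, *Thra*, *Nrg1* and *Shisa5*, and those that fell most to *Slco3a1*, *Rgs19*, *Scfd2*, *Wasf1* and *Hist1h2bp*. *Tbc1d24* encodes a protein of vesicle traffic with a Rab GTPase-activating domain. Its 7265-nt isoform ENSMUST00000097376.10 measured 3.84, 5.45, 6.86 and 38.3 CPM in KM_NTC and 9.51, 8.15, 7.82 and 94.9 CPM in KM_4A2cr, with a log2 fold change of 0.93 (adjusted p = 0.0327 by edgeR). Its share was higher in 4 of 4 pairs, by 9.89 ± 9.12 points. Replicate 4 was by far the highest in each group, and without it the log2 fold change was 0.66. For *Nrg1*, a ligand of ErbB receptors with 17 kept isoforms, the 2807-nt isoform ENSMUST00000208617.3 rose by 0.88 on the log2 scale (adjusted p = 0.0820 by edgeR), and the 9 tested isoforms ranged from -0.16 to 0.88.

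*Wasf1*, a WAVE-complex regulator of actin branching, is given as the member of this group whose shares did not overlap. Its 2609-nt isoform ENSMUST00000019975.14 held 53.8, 49.3, 52.1 and 51.1% in KM_NTC and 43.8, 39.5, 43.2 and 46.7% in KM_4A2cr, lower in 4 of 4 pairs. The mean difference was -8.28 ± 2.64 points, but on 234 counts of this isoform the share test gave an unadjusted p of 0.0686 by edgeR. The level of this isoform fell by 0.78 on the log2 scale (adjusted p = 0.0830 by edgeR) and that of the other had a log2 fold change of -0.29. *Hist1h2bp* is 1 of many near-identical histone H2B genes, so its reads may be divided between copies.

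None of the 15 genes of interest in the study with 2 or more kept isoforms had a usage call. The largest change in mean share ran from 0.05 percentage points for *Eif2ak3* to 3.37 points for *Ebag9*, and the smallest usage p was 0.266, for *Mtor*. The 5 isoforms of *Myc* had log2 fold changes between -0.09 and 0.08 and the 2 of *Actb* between -0.01 and 0.03, and 0 of these 7 passed the test.

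*Cdkn2a*, the locus of the tumour suppressors p16Ink4a and p19Arf, fell in both of its isoforms. ENSMUST00000060501.5 (852 nt) measured 22.7, 19.7, 20.6 and 11.3 CPM in KM_NTC and 13.2, 9.05, 8.38 and 5.93 CPM in KM_4A2cr, a log2 fold change of -1.02 (adjusted p = 0.00607 by edgeR). ENSMUST00000107131.2 (895 nt) measured 24.7, 23.4, 19.2 and 11.7 CPM against 15.8, 10.9, 7.26 and 10.2 CPM, a log2 fold change of -0.84 (adjusted p = 0.0396 by edgeR). Each isoform was lower in KM_4A2cr in 4 of 4 pairs, the groups overlapped for both, and the tables do not say which protein each encodes. The share of the shorter isoform changed by -3.23 ± 6.31 points. *Cdkn1a*, which encodes the cell cycle inhibitor p21, had 4 isoforms with log2 fold changes between 0.55 and 0.66, of which that of ENSMUST00000233296.2 passed (adjusted p = 0.0588 by edgeR). It measured 61.4 CPM in KM_4A2cr replicate 4 against 22.9 to 37.3 CPM in the other KM_4A2cr libraries, and without replicate 4 the isoform had a log2 fold change of 0.45 (adjusted p = 0.00353 in edgeR), with 0.40 in place of 0.63 for the gene sum.

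In the gene lists, the called isoforms for the secretory pathway rose and those for cell division fell. The lists and their members were chosen with earlier results of these data known, so their rates against all kept isoforms are a description. Of 114 tested isoforms for glycoprotein and proteoglycan synthesis 9 rose and 0 fell (7.89% called, against 4.24% of all kept isoforms, and all in 5 genes). The median log2 fold change was 0.21 against 0.01 for all kept isoforms. Without replicate 4 the counts were 60 and 4 of 117 (54.7% called, against 24.4%). *Fut8*, the enzyme of core fucosylation, had 3 isoforms of nearly equal share, and all 3 rose. Where reads common to the 3 were divided between them, these rises are not separate results. ENSMUST00000171770.10 measured 45.6, 59.1, 83.8 and 74.6 CPM in KM_NTC and 101, 107, 178 and 102 CPM in KM_4A2cr, with a log2 fold change of 0.91 (adjusted p = 0.00699 by edgeR). The groups did not overlap. The other isoforms had log2 fold changes of 0.91 and 0.98, and no share changed by more than 1.08 points. Both isoforms of *Man1a*, a mannosidase that trims N-glycans in the Golgi, rose (0.84 and 0.83), although that of 5137 nt did so in 3 of 4 pairs only, and so did both of *Ndst1*, which sulphates heparan sulphate (0.55 and 0.51). The remaining 2 were 1 isoform each of *Slc35a3*, a nucleotide sugar transporter, and *Pomgnt1*, an enzyme of O-mannosyl glycans (0.55 and 0.65), the first higher in 3 of 4 pairs. With each replicate left out in turn, the 9 were called only without replicate 4, except that ENSMUST00000171770.10 was also called without replicate 1.

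Of 106 tested isoforms for transport between endoplasmic reticulum and Golgi, 7 rose and 0 fell (6.6% called, against 4.24% of all kept isoforms, and all in 4 genes), with a median log2 fold change of 0.21. They belonged to *Lman2l*, a cargo lectin (0.78 and 0.66), *Kdelr1*, the receptor that retrieves resident proteins (0.55 and 0.50), *Tmed10*, a p24 cargo receptor (0.56 and 0.56), and *Ssr1*, a subunit of the translocon-associated complex (0.56). Without replicate 4, 53 rose and 1 fell of 106 (50.9% called, against 24.4%). With each replicate left out in turn, all 7 were called only without replicate 4. Of 95 tested isoforms for DNA replication and mitosis, 0 rose and 6 fell (6.32% called, against 1.16% lower and 4.24% in either direction among all kept isoforms), with a median of -0.27, and DESeq2 called 0 while 30 were lower at an unadjusted p under 0.05 in edgeR (31.6%, against 5.87% of all kept isoforms). The 6 were 1 isoform each of the kinase and cyclin genes *Cdk1*, *Ccna2* and *Ccnb1*, the spindle factors *Nusap1* and *Tpx2*, and *Ect2*, an exchange factor of cytokinesis, with log2 fold changes between -0.59 and -0.48. Without replicate 4, 39 fell and 5 rose of 94 (46.8% called, against 24.4%). The 6 named isoforms too were called only without replicate 4 when each replicate was left out in turn.

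Of these 6, *Ccna2* had the smallest p in the share test. Its 2001-nt isoform ENSMUST00000196316.2 held 35.6, 31.7, 31.7 and 36.2% in KM_NTC and 31.5, 28.4, 28 and 30.7% in KM_4A2cr, lower in 4 of 4 pairs by 4.12 ± 0.97 points, with an unadjusted p of 0.00959 in the share test by edgeR that did not pass adjustment. That isoform fell by 0.56 on the log2 scale (adjusted p = 0.0494 by edgeR), and the 2965-nt isoform had a log2 fold change of -0.28 (adjusted p = 0.324 by edgeR).

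Among targets of epithelial and mesenchymal splicing programmes, 0 of 156 isoforms rose and 2 fell (1.28% called, against 4.24% of all kept isoforms). Both were isoforms of *Enah*, an actin regulator of cell protrusions. ENSMUST00000193703.6 (11229 nt) measured 9.95, 15.0, 13.6 and 11.1 CPM in KM_NTC and 5.09, 7.37, 5.22 and 4.24 CPM in KM_4A2cr, and ENSMUST00000111024.10 (3572 nt) measured 5.69, 7.15, 5.11 and 6.95 CPM against 3.74, 1.94, 1.86 and 2.75 CPM. The groups did not overlap for either isoform, and the log2 fold changes were -1.15 (adjusted p = 0.00500 by edgeR) and -1.29 (adjusted p = 0.0164 by edgeR). Among the 29 called isoforms of the lists, that of 11229 nt was the only one called whichever replicate was left out, while all 29 kept their direction and 25 were called only without replicate 4. The other 3 tested isoforms of *Enah* had log2 fold changes between -0.94 and -0.80. Without replicate 4, 5 isoforms of this list rose and 30 fell of 157 (22.3% called). Of all kept isoforms 24.4% were called there, 15.3% higher and 9.09% lower.

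Of 200 isoforms of splicing regulators, 48 of initiation factors and 31 of the CCR4-NOT complex and other deadenylation factors, 0 were called in either direction by edgeR or DESeq2. At an unadjusted p under 0.05 in edgeR, 2 were higher and 18 lower (9%), 0 higher and 2 lower (4.17%), and 0 higher and 1 lower (3.23%), against 9.38% higher and 5.87% lower over all kept isoforms, and the medians were -0.06, -0.06 and -0.09. Without replicate 4, 3 rose and 30 fell of 200 (16.5% called), 1 rose and 5 fell of 49 (12.2%), and 0 of 31 were called (0%). Of all kept isoforms 24.4% were called there, 15.3% higher and 9.09% lower. Of 68 isoforms of metabolic and survival genes known for alternative splicing, 1 rose and 0 fell (1.47% called, against 4.24% of all kept isoforms). The 1 that rose was of *Vegfa* (ENSMUST00000142351.9, log2 fold change 0.56), an angiogenic factor whose other isoforms had 0.45 and 0.51. Of 48 isoforms of secreted inflammatory factors, 1 rose, the same *Vegfa* isoform, and 1 fell, of the chemokine *Ccl20* (-0.86). That is 4.17% called, close to the 4.24% of all kept isoforms. In this list 18 rose and 5 fell of 50 without replicate 4 (46% called, against 24.4%). Scaled by library size alone, 4 isoforms of glycoprotein synthesis rose and 2 fell, 2 of transport rose and 0 fell, and 21 of replication and mitosis fell, with medians of 0.07, 0.06 and -0.41 against -0.14 for all kept isoforms.

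**Figure D4:**
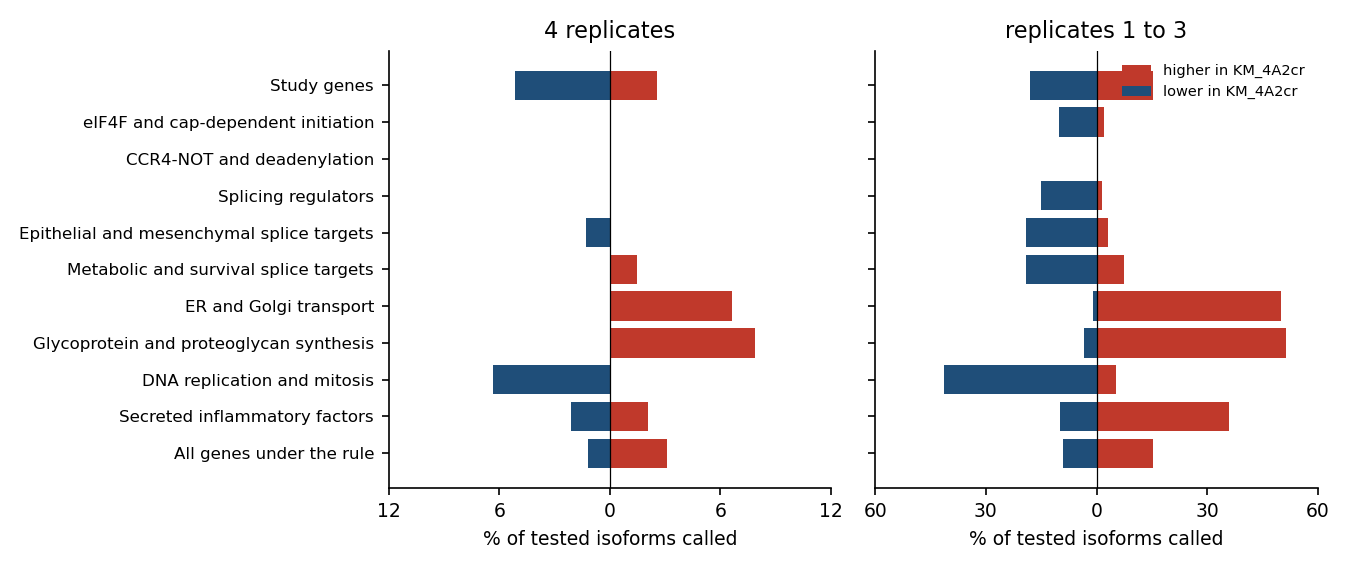
Percentage of tested isoforms in each gene list called higher (red, to the right) or lower (blue, to the left) in KM_4A2cr at an adjusted p of at most 0.1 by edgeR, with 4 replicates (left) and with replicates 1 to 3 (right, wider axis), and all kept isoforms at the bottom. In both panels the calls lie mostly to the right for glycoprotein synthesis and ER and Golgi transport and to the left for DNA replication and mitosis.

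Of the 20 list genes with the smallest usage p of their list, 0 passed the share test (0.0482% of all genes passed). In 9 of the 20 (45%) the isoform with the largest change in share moved in the same direction in all 4 pairs, against 1057 of all 6229 genes (17%), and the small p that chose these genes favours this. The largest change was that of *Tpm2*, a tropomyosin, at -19.6 ± 34.4 points on 33 counts of its 2175-nt isoform, which was lower in 3 of 4 pairs and higher in pair 4. For *Clk2*, a kinase of splicing factors, the 2154-nt isoform ENSMUST00000121212.9 was higher in 4 of 4 pairs, by 9.44 ± 9.39 points. For *Bax*, a pore-forming inducer of apoptosis, the 867-nt isoform ENSMUST00000033093.10 held 57.4, 62.0, 59.8 and 55.9% in KM_NTC and 52.5, 53.8, 53.4 and 53.2% in KM_4A2cr, with no overlap between groups and a mean difference of -5.54 ± 2.31 points. For *Ppa2*, a mitochondrial pyrophosphatase, the 1226-nt isoform ENSMUST00000029644.16 went from 55.0, 49.8, 52.4 and 55.4% to 48.8, 46.7, 48.5 and 46.6%, by -5.50 ± 2.57 points. For the splicing factor *Srsf10* the 3058-nt isoform ENSMUST00000105853.10 changed by -3.44 ± 1.19 points, and for *Cnot10*, a CCR4-NOT subunit, the 2853-nt isoform ENSMUST00000070117.8 changed by 4.48 ± 1.69 points, each in 4 of 4 pairs. Their unadjusted p-values per gene in the share test by edgeR were 0.0162, 0.0287, 0.0147 and 0.0607.

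**Figure D5:**
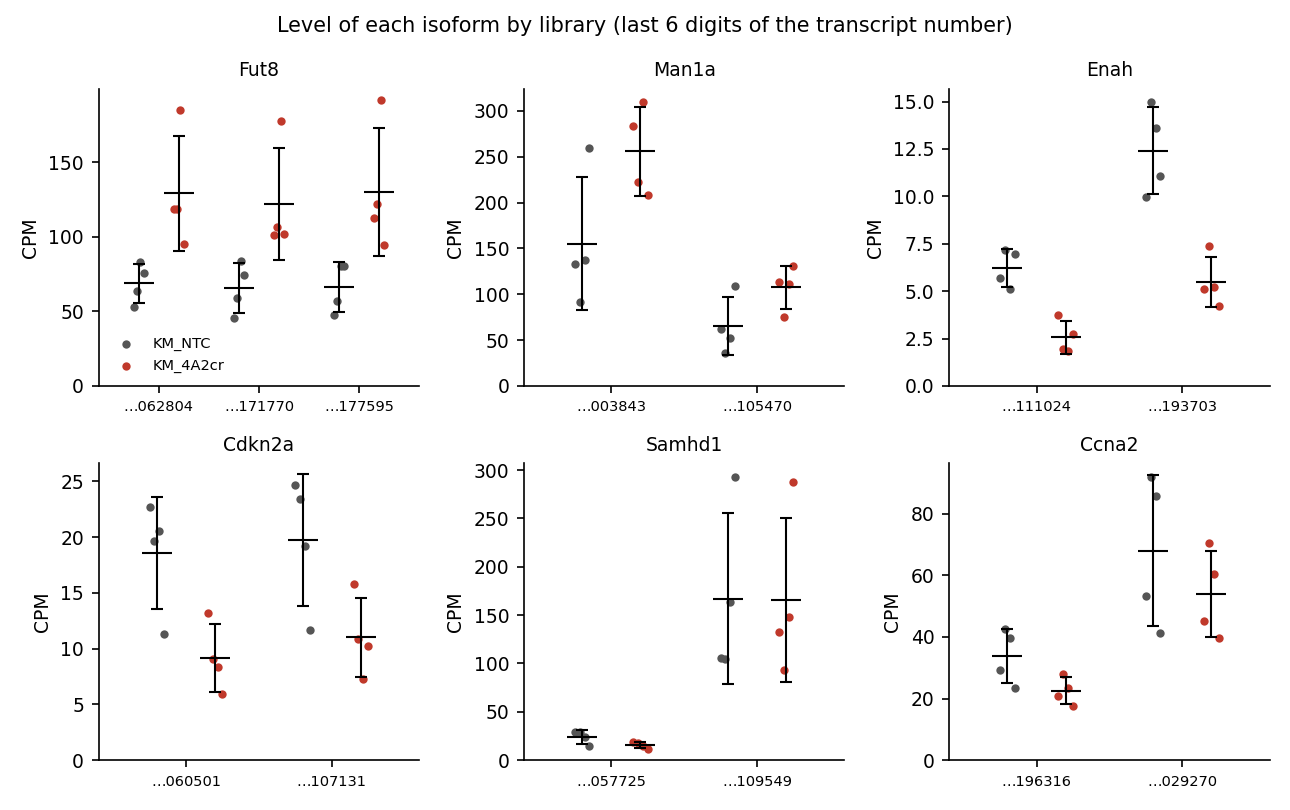
Level of each isoform (y axis, TMM-normalised CPM) in the 4 KM_NTC (grey) and 4 KM_4A2cr (red) libraries for 6 genes, with isoforms on the x axis named by the last 6 digits of their transcript number and bars giving mean ± SD (n = 4). The isoforms drawn for Fut8, Man1a, Enah and Cdkn2a were all called in the direction of their gene sum, while for Samhd1 the scarcer isoform fell and the abundant one had a log2 fold change of 0.01.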

How the data were processed

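Isoforms were compared in 4 KM_NTC and 4 KM_4A2cr total RNA libraries. The authors trimmed reads with cutadapt 1.18, collapsed duplicates with UMI-tools 1.0.1 and SAMtools 1.9, aligned with Bowtie2 2.3.5.1 to GENCODE vM27 protein-coding transcripts and deposited RSEM 1.3.3 expected counts, TPM, FPKM and isoform percent per isoform; the authors' FPKM and isoform percent were not used. The authors deposited RPFs as whole counts on 1 transcript per gene. Symbols came from a gene name table; no transcript sequences or coordinates were used here.

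Expected counts were rounded. Shares were recomputed from counts. Levels, gene sums and RPFs were tested with edgeR 4.0.16 (R 4.3.3), using filterByExpr, TMM, glmQLFit and glmQLFTest, with terms for line and for replicate, Benjamini-Hochberg adjustment over all features and a threshold of 0.1. Unequal change within a gene was tested with diffSpliceDGE. The share test set each isoform against the rest of its gene with a term for every library and a Simes p per gene; it and its alternatives were added after the data were seen. On simulated counts, diffSpliceDGE, the share test and the edgeR test of gene sums were tried, and the other tests were not. No reads were divided between isoforms in that simulation. limma 3.58.1 and DESeq2 1.42.0 served as alternatives.

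The labels number replicates 1 to 4 in both lines. The study gives the footprint data as separate experiments and corrected its sample plots for batch. That a number marks the same experiment in both lines is taken from the level data. There, same-numbered libraries deviated together at correlations of 0.696, 0.681, 0.536 and 0.662, and differently numbered ones reached at most 0.346. In share, same-numbered libraries had 0.172, 0.193, 0.0755 and 0.392. The share data did not single out pair 3. KM_NTC replicate 3 had 0.0959 with KM_4A2cr replicate 2, and KM_4A2cr replicate 3 had 0.117 with KM_NTC replicate 2.

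Members and gene lists were chosen with earlier results of these data known. Genes were named if the study stained or named them, if an isoform was among the 5 largest rises or 5 largest falls with 1 sign in 4 pairs in a gene whose sum was not called, or if they had 1 of the 2 smallest usage p-values of a list; called members of lists and share test genes were named after values were seen. Scarce isoforms have few counts per library, so their shares are imprecise, and p-values measure the spread between replicates of 1 pair of lines. One allele of the line and the values of 1 gene of interest are not reported here.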

Additional observations from a re-analysis of the deposited data

Results flagged for a closer look

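Of 140 groups of 4 libraries examined, 14 held a highest or lowest library set apart from the other 3 by more than Dixon's 95% critical value, and chance alone would flag about 1 in 20. In 12 of the 14 the library was replicate 4, a count that the choice of isoforms favours, since *Casc4*, *Cd44*, *Kif3a* and *Gsk3b* were named for being called only without that replicate. In the KM_4A2cr replicate 4 library the 4215-nt isoform of *Casc4* held 79.6% against 52.0 to 54.7% in the other 3, the 5614-nt isoform of *Cd44* held 31.9% against 41.4 to 43.0%, and the 1750-nt isoform of *Gsk3b* held 30.1% against 15.6 to 18.0%. The 3161-nt isoform of *Kif3a* measured 139 CPM in KM_NTC replicate 4 against 15.2 to 19.2 CPM, and 145 CPM in KM_4A2cr replicate 4 against 25.8 to 28.9 CPM. The shorter *Eif4a2* isoform measured 249 CPM in KM_NTC replicate 4 and 215 CPM in KM_4A2cr replicate 4, and the longer one 265 CPM in KM_NTC replicate 4. The 7265-nt isoform of *Tbc1d24* measured 38.3 and 94.9 CPM in replicate 4 of KM_NTC and KM_4A2cr, and the called isoform of *Vegfa* 359 and 378 CPM. Outside replicate 4, the 867-nt isoform of *Bax* measured 27.6 CPM in KM_NTC replicate 1 against 19.5 to 20.2 CPM, and *Fut8* ENSMUST00000171770.10 measured 178 CPM in KM_4A2cr replicate 3 against 101 to 107 CPM.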

How the results depend on the processing

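The planned usage test gave 0 genes and 0 isoforms under all of its alternatives, against 3 genes and 5 isoforms in the share test. The share test called 5 genes with isoforms of 1 summed count and more, 0 without the replicate block and 0 with limma on log2 ratios, and between 1 and 9 genes with 1 replicate left out, lowest without replicate 3 and highest without replicate 4. Over all 19596 isoforms tested, 647 were higher and 263 lower, and 667 gene sums were called. At a threshold of 0.05 these counts were 349, 103 and 321. Without the replicate block they were 0, 0 and 0, with 643 isoforms and 362 gene sums at an unadjusted p under 0.05 by edgeR. With library size alone they were 366, 1027 and 1130. With 1 replicate left out they ran from 80 to 3224, from 16 to 1958 and from 63 to 3260, each lowest without replicate 3 and highest without replicate 4. Isoforms called in genes whose sum was not called numbered 3 to 321, lowest without replicate 2 and highest without replicate 4. Lower isoforms numbered 456 when all isoforms with 1 count were tested and 134 with DESeq2. The cause of these changes was not tested. Of the values for named genes under the alternatives, 910 kept their side of the threshold or moved by less than the spread between pairs, 3 were called only by the share test (*Samhd1*, *Wdr89* and *Chpt1*) and 4 moved further, all of them shares computed from TPM. Depth limits shares of scarce isoforms most, and how far reads in sequence common to isoforms alter a change in share was not tested.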
